A study of Mus musculus with 60 samples.

Results

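The genes described here carry out antigen presentation by class I molecules of the major histocompatibility complex (MHC): the light chain gene B2m, the heavy chain genes H2-K1, H2-D1, H2-T9 and H2-T23, the peptide transporter genes Tap1 and Tap2, the tapasin gene Tapbp, and the immunoproteasome genes Psmb8 and Psmb9. They are 10 of the 24982 gene rows in each of the 2 deposited expression tables, picked by symbol, and all 10 are rows of both tables. B2m had the highest level per length of the 10 in every library, at 288 to 1883 FPKM in the first table and 532 to 3774 FPKM in the second (FPKM is the number of fragments scaled by transcript length and by the fragments of the library). Psmb8 was near the bottom of the range, reaching 1 FPKM in 6 of 24 libraries of the first table and 12 of 36 of the second.

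All libraries were total RNA from cultures of C3H10T1/2, a mouse mesenchymal line that can be turned into fat cells, at days 0, 2, 4 and 6 of adipogenic differentiation. The first table holds Tet1-KO and WT cells, and the second holds populations labelled 23-CATA, 23-Tet1 and 23-NC, with 3 libraries per population and day, so 60 libraries in 20 groups. Every population received the same induction. Confluent cells were given rosiglitazone at 1 µM, T3 at 1 nM, insulin at 10 µg/ml, IBMX at 0.5 mM and dexamethasone at 1 µM for 48 h in medium with 10% FBS, and then insulin alone at 5 µg/ml. The labels give Tet1-KO as a knockout of Tet1, whose product oxidises methylated cytosine in DNA, and do not say what the 23- populations carry, whether a population is 1 clone, or whether the 3 libraries of a group came from separate cultures. The p-values then measure the spread between these libraries, which may be technical.

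A class I molecule is a heavy chain bound to the light chain beta 2 microglobulin, the product of B2m, and it shows short peptides from the cell's own proteins at its surface to CD8 T cells and natural killer cells. The peptides are cut by the proteasome, in which interferon brings in the catalytic subunits PSMB8, PSMB9 and PSMB10 in place of PSMB5, PSMB6 and PSMB7, and are carried into the endoplasmic reticulum by the TAP1 and TAP2 transporter, to which tapasin tethers the empty heavy chain. H2-K1 and H2-D1 are the classical heavy chains of the mouse, H2-T23 encodes Qa-1, which presents leader peptides of other class I chains to NKG2 receptors, and H2-T9 is a gene of the T region that belongs to the same group as H2-T22 and H2-T10. Interferons raise most of these genes through IRF1 and the transactivator NLRC5.

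In the GENCODE annotation of GRCm38, B2m lies at chr2:122147686-122153083 on the plus strand, and 8 members lie within 2117.0 kb of chromosome 17. Psmb9 (chr17:34181987-34187764, minus), Tap1 (chr17:34187553-34197225, plus), Psmb8 (chr17:34197721-34201454, plus) and Tap2 (chr17:34203527-34216321, plus) lie side by side in 34.3 kb. Psmb9 and Tap1 overlap by 212 bases on opposite strands, and whether strand was used in counting is not given in the sources used here. The others are Tapbp (chr17:33915899-33929292, plus), H2-K1 (chr17:33996017-34000347, minus), H2-D1 (chr17:35262730-35267499, plus) and H2-T23 (chr17:36029773-36032855, minus).

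The promoters of the light chain and of 3 heavy chains are shown because these chains differ in how they moved in the results. Each is the 250 bases before a start site, from RefSeq (GRCm38.p6), 5′ to 3′ on the gene's strand. The coordinates are chr2:122147437-122147686 (plus) for B2m, chr17:34000348-34000597 (minus) for H2-K1, chr17:35262844-35263093 (plus) for H2-D1 and chr17:36032702-36032951 (minus) for H2-T23. Capitals mark matches to the interferon response core AANNGAAA and to the kappa B motif GGGANNNCC, on either strand.
B2m: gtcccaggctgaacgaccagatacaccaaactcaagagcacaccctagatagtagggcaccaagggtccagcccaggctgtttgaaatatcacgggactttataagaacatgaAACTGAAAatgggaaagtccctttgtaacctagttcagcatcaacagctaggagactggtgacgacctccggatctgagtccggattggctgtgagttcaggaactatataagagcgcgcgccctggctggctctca
H2-K1: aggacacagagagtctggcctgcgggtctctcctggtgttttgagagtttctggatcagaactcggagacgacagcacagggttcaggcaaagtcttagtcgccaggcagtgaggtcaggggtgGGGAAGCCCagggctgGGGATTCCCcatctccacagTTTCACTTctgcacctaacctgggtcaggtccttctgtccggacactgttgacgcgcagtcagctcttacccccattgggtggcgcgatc
H2-D1: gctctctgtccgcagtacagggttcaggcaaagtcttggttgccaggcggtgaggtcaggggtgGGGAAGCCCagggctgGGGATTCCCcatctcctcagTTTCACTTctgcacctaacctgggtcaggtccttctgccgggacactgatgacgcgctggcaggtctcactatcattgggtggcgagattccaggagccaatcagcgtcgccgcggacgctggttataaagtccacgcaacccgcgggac
H2-T23: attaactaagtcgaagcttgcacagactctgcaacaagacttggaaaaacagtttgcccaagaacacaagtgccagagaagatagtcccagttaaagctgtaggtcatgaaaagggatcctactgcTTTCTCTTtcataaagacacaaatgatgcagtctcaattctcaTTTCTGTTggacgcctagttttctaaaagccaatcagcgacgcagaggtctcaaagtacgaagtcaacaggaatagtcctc
H2-K1 and H2-D1 each held 2 kappa B matches followed by 1 interferon core, with the core at position -90 from the H2-K1 start, the upstream of its 2 listed starts, and at -150 from the H2-D1 start. B2m held 1 core at -137, and H2-T23 held 2 cores at -124 and -81, with no match to GGGANNNCC in either window. Kappa B sites of other lengths or letters were not searched, so these promoters may hold such sites. The core occurred in 21.3% of 32851 promoter windows of this length, taken from all chromosomes but 1, and for 4 of 8 members with a window. Members are counted by gene, and H2-K1 has 2 windows. The kappa B motif occurred in 15.8% of the 32851 windows and for 2 of 8 members, and the CCAAT box in 33.8% and for 7 of 8 members. The gamma-activated motif TTCNNNGAA occurred in 7.02% and for Psmb8 alone among the members, at -97. No motif search was made for Tap2 and H2-T9.

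Heavy chain genes are close copies of each other, so reads can be split between rows. Of the 50-base stretches in its transcripts, H2-K1 shared 6.87% with transcripts of other genes, H2-D1 13.9%, H2-T23 28.8% and the related H2-T22 43.9%, whereas B2m, Psmb8 and Psmb9 shared 0%, Tap1 0.834%, Tap2 0.708% and Tapbp 3.5%. The aligned transcripts of H2-K1 and H2-D1 were 91.6% identical and those of H2-T22 and H2-T10 97.4%. C3H10T1/2 comes from C3H mice, whose H-2 haplotype differs from that of the C57BL/6 genome used for alignment. The effect of this on the heavy chain values was not tested.

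The targeted gene followed the labels at day 0, where it was expressed: Tet1 stood at 0.26, 0.24 and 0.25 FPKM in Tet1-KO cells, against 0.88, 1.12 and 1.03 FPKM in WT cells. On days 2 to 6 it was at most 0.06 FPKM in Tet1-KO and 0.11 FPKM in WT cells. In the second table Tet1 averaged 5.98 to 18.9 FPKM over the days in 23-CATA cells, 4.19 to 6.85 FPKM in 23-Tet1 cells and 0 to 0.087 FPKM in 23-NC cells. Depth was estimated from the steps of low FPKM values over a fixed search range. In 59 of 60 libraries it was put at 12 to 19.5 M fragments, with a median of 15.2 M. How sharp the steps were was not used to accept an estimate. Of 12 leukocyte markers, 9 never reached 1 FPKM in either table, among them Ptprc, Itgam, Adgre1 and Cd3e. The other 3 did: Cd68 reached 46.0 FPKM in the first table and 132 FPKM in the second, Lyz2 43.8 and 3.29 FPKM, and Coro1a 2.73 and 1.03 FPKM. Mesenchymal markers were high throughout, with Vim at 606 to 6016 FPKM. The Tet1-KO day 6 libraries stood apart from each other: replicate 2 had 11805 genes above 0, where the other libraries of its table had 13837 to 14954, and its depth could not be read.

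Changes below are differences of log2(FPKM + 1), which understate the change of low genes, with the SE of a limma fit over all groups of a table. Each is given with the median change over every tested gene of that comparison taken off, and a gene is called changed where the Benjamini-Hochberg adjusted p of the change, before that median was taken off, was below 0.05. All 10 members were tested among 11911 genes of the first table, and 9 among 12231 genes of the second, where H2-T9 did not reach the minimum of 1 FPKM in 3 libraries. In these bulk libraries fewer cells expressing a gene and less RNA per cell cannot be told apart.

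**Figure D1:**
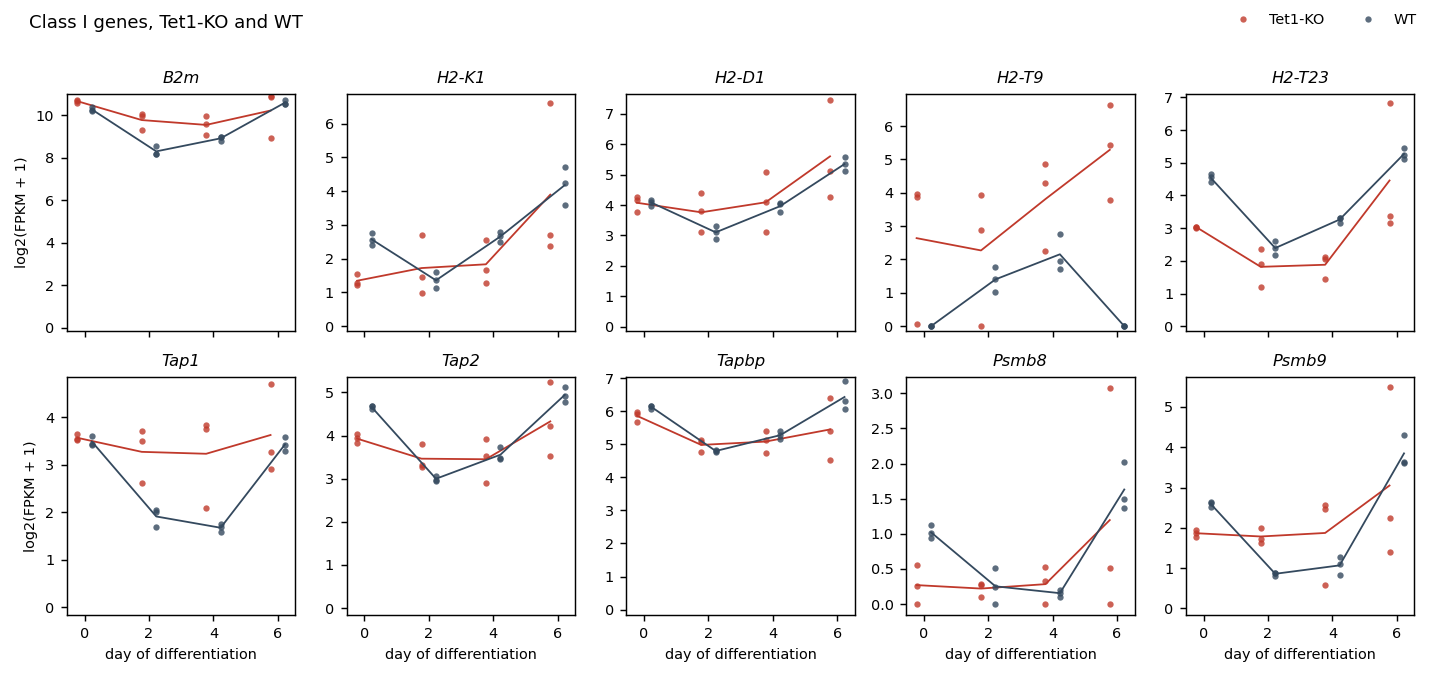
Levels of the 10 class I genes as log2(FPKM + 1) on days 0, 2, 4 and 6 in Tet1-KO (left points, red) and WT cells (right points, dark blue). Points are single libraries, 3 per group, and lines join the group means. Group means of B2m, H2-T23, Tap1, Tap2, Tapbp and Psmb9 in WT cells were lower on days 2 and 4 than on day 0, H2-T9 was listed at 0 in WT cells on days 0 and 6, and 1 Tet1-KO library lies far above the other two on day 6 for H2-K1, H2-T23, Psmb8 and Psmb9.

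In WT cells 6 of the 10 genes were lower on day 2 than on day 0, and by day 6 none was called against day 0. B2m averaged 1232 ± 74 FPKM on day 0, 315 ± 45 on day 2, 481 ± 40 on day 4 and 1541 ± 116 on day 6 (SD, n = 3). Tap1 averaged 10.2 FPKM on day 0, 2.79 on day 2, 2.20 on day 4 and 9.81 on day 6. Their 3 libraries on day 2 all lay below the 3 of day 0.

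Between day 2 and day 0 in WT cells, 0 members were higher and 6 lower, where 62.1% of all genes were called in either direction and the median gene moved by -0.39. H2-T23 fell by 1.76 ± 0.58 (adjusted p = 0.00343), B2m fell by 1.58 ± 0.36 (0.000106), Tap2 fell by 1.27 ± 0.30 (8.4e-05), Tap1 fell by 1.18 ± 0.41 (0.00233) and Tapbp fell by 0.94 ± 0.31 (0.000957). Psmb9, the other call, changed by -1.34 ± 0.66 (0.0276), and its call was lost relative to the median gene (0.0872), with quantile (0.168) or median-ratio scaling (0.0625) and without any 1 of the 6 libraries. H2-K1 changed by -0.82, H2-D1 by -0.59 and Psmb8 by -0.38 without a call. The SE is shared by all groups of the table, Tet1-KO day 6 among them. With the WT day 0 and day 2 libraries fitted alone all 10 were called, H2-T9 higher and the other 9 lower. In that fit 10037 of 11911 genes were called.

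On day 6 all WT libraries lay above those of day 0 for H2-K1, Psmb9, B2m, H2-D1, H2-T23, Tap2 and Psmb8. Tap1 and Tapbp overlapped, and H2-T9 was listed at 0 on both days. The share of all genes without overlap was not computed. H2-K1 had 10.91, 25.48 and 17.81 FPKM on day 6, against 5.8, 4.28 and 4.84 FPKM on day 0. Psmb9 had 11.35, 18.74 and 11.25 FPKM on day 6, against 4.69, 5.28 and 5.13 FPKM on day 0. The libraries of the 2 days do not overlap for either gene, and the changes were 1.90 ± 0.71 for H2-K1 (adjusted p = 0.0604) and 1.54 ± 0.66 for Psmb9 (0.11). None of the 10 was called by limma, where 56.6% of all genes were, and H2-K1 and H2-D1 had an unadjusted p below 0.05. With the WT libraries fitted alone 7 were called higher, including H2-K1 (1.90 ± 0.26) and H2-D1 (1.56 ± 0.13), where 9158 of 11911 genes were called. A fit that leaves out Tet1-KO day 6 replicate 2 called 3 (H2-D1, H2-K1 and Psmb9), where 8138 genes were called. The count was 2 relative to the median gene, 2 with a replicate block, 3 with quantile normalisation, 6 with median-ratio scaling and 6 with library weights. Of all 11911 genes, these settings called 6103, 6853, 6700, 6314 and 9454, in that order.

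In Tet1-KO cells 1 member was called between day 2 and day 0, and the libraries of a day spread more. B2m averaged 1611 ± 70 FPKM on day 0, 892 ± 229 on day 2, 766 ± 225 on day 4 and 1405 ± 802 on day 6. Tap1 had 10.29, 5.11 and 12.05 FPKM on day 2, against 11.45, 10.72 and 10.4 FPKM on day 0, and the libraries overlap. Between day 2 and day 0, 1 member was lower, Tapbp, which fell by 0.78 ± 0.31 (adjusted p = 0.0457), where 22.5% of all genes were called. That call was lost without any 1 of the 6 libraries, relative to the median gene (0.0795), with a pseudocount of 0.1 FPKM and with no filter. Between day 6 and day 0, 3 members were higher and 0 lower, where 45.6% of all genes were called and the median gene moved by -0.38: H2-K1 (2.93 ± 0.71, 0.00802), H2-D1 (1.91 ± 0.55, 0.0307) and H2-T9 (3.03 ± 0.96, 0.032). The number was 7 without day 6 replicate 2, where 4948 of 11911 genes were called. Without day 0 replicate 3 it was 1, and the number of all genes called in that fit is not given here. With the 2 groups fitted alone 0 members were called, where 431 genes were called. The H2-D1 call was lost without day 6 replicate 3 or any 1 of the day 0 libraries, and the H2-T9 call without day 0 replicate 3 or day 6 replicate 1 or 3. With no filter both were lost (0.0529 and 0.057), and H2-T9 with a pseudocount of 0.1 FPKM (0.066).

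The difference between the day 6 to day 0 changes of Tet1-KO and WT cells was called by limma for 0 members, where 17.8% of all genes were called. No member had an unadjusted p below 0.05. Without Tet1-KO day 6 replicate 3, 1 was called, Tapbp, lower, where 3174 of 11911 genes were called.

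Between Tet1-KO and WT cells on day 0 no member was called, although the libraries of H2-T23, H2-K1 and several other members did not overlap. H2-T23 had 7.07, 7.2 and 7.24 FPKM in Tet1-KO cells, against 24.21, 20.06 and 22.61 FPKM in WT cells. H2-K1 had 1.44, 1.89 and 1.32 FPKM in Tet1-KO cells, against 5.8, 4.28 and 4.84 FPKM in WT cells. All Tet1-KO libraries lay below all WT libraries in both genes. The same held for Tap2, Tapbp, Psmb8 and Psmb9, while all Tet1-KO libraries lay above all WT libraries for B2m and H2-T9. For H2-T9 this rests on Tet1-KO replicate 3 at 0.05 FPKM, against 0 in all WT libraries. H2-D1 and Tap1 overlapped. The share of all genes without overlap was not computed. The changes were -1.42 ± 0.58 for H2-T23 (adjusted p = 0.082), -1.14 ± 0.71 for H2-K1 and -0.64 ± 0.30 for Tap2 (0.098), so 0 of 10 members were called, where 16.8% of all genes were, and H2-T23, H2-T9 and Tap2 had an unadjusted p below 0.05. With these 6 libraries fitted alone 5 were lower (H2-T23 -1.42 ± 0.10, H2-K1 -1.14 ± 0.13, Tap2, Psmb8 and Psmb9) and B2m was higher (0.48 ± 0.12). In that fit 5648 of 11911 genes were called, and 3955 in the fit without Tet1-KO day 6 replicate 2. Without Tet1-KO day 6 replicate 2, H2-T23 and Tap2 were lower and H2-T9 higher. Without Tet1-KO day 0 replicate 3 the count was 1, and the number of all genes called in that fit is not given here.

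The light chain on day 2 and Tap1 on days 2 and 4 were higher in Tet1-KO than in WT cells. No heavy chain among the members was called on these days. Among the other heavy chain rows, given below, H2-T22 and Mr1 were called higher and Fcgrt lower on day 2. B2m had 1000.04, 629.57 and 1046.78 FPKM in Tet1-KO cells on day 2, against 287.52, 291.4 and 367.43 FPKM in WT cells. Tap1 had 10.29, 5.11 and 12.05 FPKM in Tet1-KO cells on day 2, against 3.14, 2.23 and 2.99 FPKM in WT cells. Every Tet1-KO library lay above every WT library for both genes. On day 2, B2m (1.31 ± 0.36, adjusted p = 0.00788) and Tap1 (1.19 ± 0.41, 0.0217) were higher and 0 members were lower, where 22.9% of all genes were called and the median gene moved by 0.17. On day 4 only Tap1 was called, higher by 1.47 ± 0.41 (0.0144), where 16% of all genes were called, with 13.28, 3.27 and 12.57 FPKM in Tet1-KO cells, against 2.24, 2 and 2.35 FPKM in WT cells. The Tap1 call was lost on day 2 without Tet1-KO replicate 1 or 3 or WT replicate 1 or 2, and on day 4 without Tet1-KO replicate 1 or 3 or WT replicate 2, which left 0 members called on day 4. With the day 4 libraries fitted alone the Tap1 call was lost as well (0.0778).

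H2-T23 had 3.35, 1.74 and 3.19 FPKM in Tet1-KO cells on day 4, against 7.99, 8.87 and 8.98 FPKM in WT cells, with no overlap, a change of -1.47 ± 0.58 (adjusted p = 0.11). It was called lower with the day 4 libraries fitted alone (0.0222), the setting that ended the Tap1 call. Adipocyte marker sums differed between the populations on these days, at 8311 to 48654 FPKM in Tet1-KO cells on day 2, against 50481 to 65933 FPKM in WT cells. Their part in these differences was not tested.

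H2-T9 had the largest change of the members between Tet1-KO and WT cells on day 6. It was above 0 in 11 of 12 Tet1-KO libraries and 6 of 12 WT libraries, and in the second table it was listed at 0 in 35 of 36 libraries and at 0.02 FPKM in 1 library of 23-CATA cells. On day 6 it had 42.06, 12.82 and 98.9 FPKM in Tet1-KO cells and was listed at 0 in all 3 WT libraries. On day 0 it had 13.61, 14.73 and 0.05 FPKM in Tet1-KO cells and was listed at 0 in all 3 WT libraries. The day 6 groups do not overlap, and the change was 5.48 ± 0.96 (adjusted p = 0.000296), or 4.89 without Tet1-KO replicate 3 (0.0014).

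The related row H2-T22 moved the other way on day 6. It had 22.15, 4.99 and 20.7 FPKM in Tet1-KO cells, against 51.38, 63.08 and 52.22 FPKM in WT cells, a change of -1.77 ± 0.42 (adjusted p = 0.00116). Where H2-T9 was near 0 within the Tet1-KO group, H2-T22 was high: replicate 3 on day 0 had 0.05 FPKM of H2-T9 and 54.71 FPKM of H2-T22, and replicate 1 on day 2 had 0 and 33.56 FPKM. The sum of both rows on day 6 was 64.21, 17.81 and 119.6 FPKM in Tet1-KO cells, against 51.38, 63.08 and 52.22 FPKM in WT cells, so the groups overlap in the sum. On day 0 the sum was 61.93, 59.67 and 54.76 FPKM in Tet1-KO cells, against 40.28, 35.84 and 38.72 FPKM in WT cells, with no overlap. How reads were divided between these copies was not tested, and H2-T10, the third copy, had at most 0.41 FPKM.

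**Figure D2:**
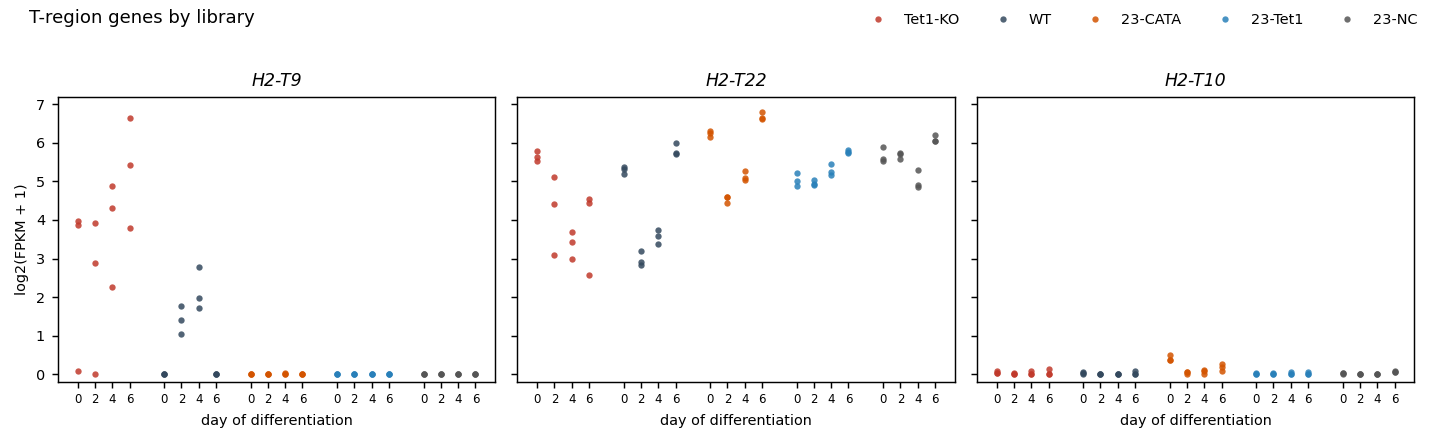
Levels of H2-T9, H2-T22 and H2-T10 as log2(FPKM + 1) on days 0, 2, 4 and 6 in Tet1-KO, WT, 23-CATA, 23-Tet1 and 23-NC cells, from left to right. Each point is 1 library, 3 per group. In the day 6 Tet1-KO libraries H2-T9 was higher and H2-T22 lower than in WT cells, H2-T9 lay at or near 0 throughout the second table, and H2-T10 was at most 0.41 FPKM in all libraries.

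On day 6, 1 member was higher in Tet1-KO cells, H2-T9, and 1 lower, Tapbp, where 45.4% of all genes were called and the median gene moved by -0.20. Tapbp had 41.48, 22.17 and 83.99 FPKM in Tet1-KO cells, against 66.45, 120.19 and 77.87 FPKM in WT cells, a change of -0.79 ± 0.31 (adjusted p = 0.0147). The libraries overlap, and the call was lost without WT replicate 2 or Tet1-KO replicate 2, or with the day 6 libraries fitted alone. That last fit called only H2-T9 of the members, and 1042 of 11911 genes.

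Replicate 3 of this group differed from the other two in most members. H2-K1 had 5.46, 4.22 and 96.73 FPKM in the Tet1-KO libraries of day 6, against 10.91, 25.48 and 17.81 FPKM in WT cells. H2-T23 had 7.92, 9.41 and 113.23 FPKM in Tet1-KO cells, against 37.08, 42.73 and 33.53 FPKM in WT cells. In both genes replicates 1 and 2 lay below all WT libraries and replicate 3 above them. Replicate 3 was the highest of the 3 Tet1-KO libraries for 9 of 10 members, for 23 of 24 interferon-stimulated genes and for 39.7% of 11614 genes in all, and it stood 17.7-fold above replicate 1 for H2-K1, 14.3-fold for H2-T23, 17.7-fold for Psmb8, 11.7-fold for Psmb9 and 0.985-fold for B2m. Summed FPKM of the interferon-stimulated genes was 307, 70.1 and 1710 in the Tet1-KO libraries, against 205, 228 and 225 in WT cells. Leukocyte marker sums were 3.5 to 35.4 FPKM in Tet1-KO cells, against 32.8 to 46.2 FPKM in WT cells, where Cd68 made up most of the sum, and their part was not tested.

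Without replicate 3, 7 members were called on day 6, H2-T9 higher and 6 lower in Tet1-KO cells, where 6377 of 11911 genes were called. H2-T23 fell by 1.72 (adjusted p = 8.5e-06), Psmb9 by 1.74 (0.000466), H2-K1 by 1.36 (0.00262), Tapbp by 1.18 (0.000132), Psmb8 by 1.09 (5.35e-05) and Tap2 by 0.79 (0.00141), each as a change of log2(FPKM + 1). Without both replicates 2 and 3 the changes were -2.12 for H2-T23 and -1.60 for Psmb9. That last comparison sets 1 Tet1-KO library against 3 WT libraries and takes its spread from the other groups. Without replicate 2 only H2-T9 was called among the members, where 5192 of 11911 genes were called.

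**Figure D3:**
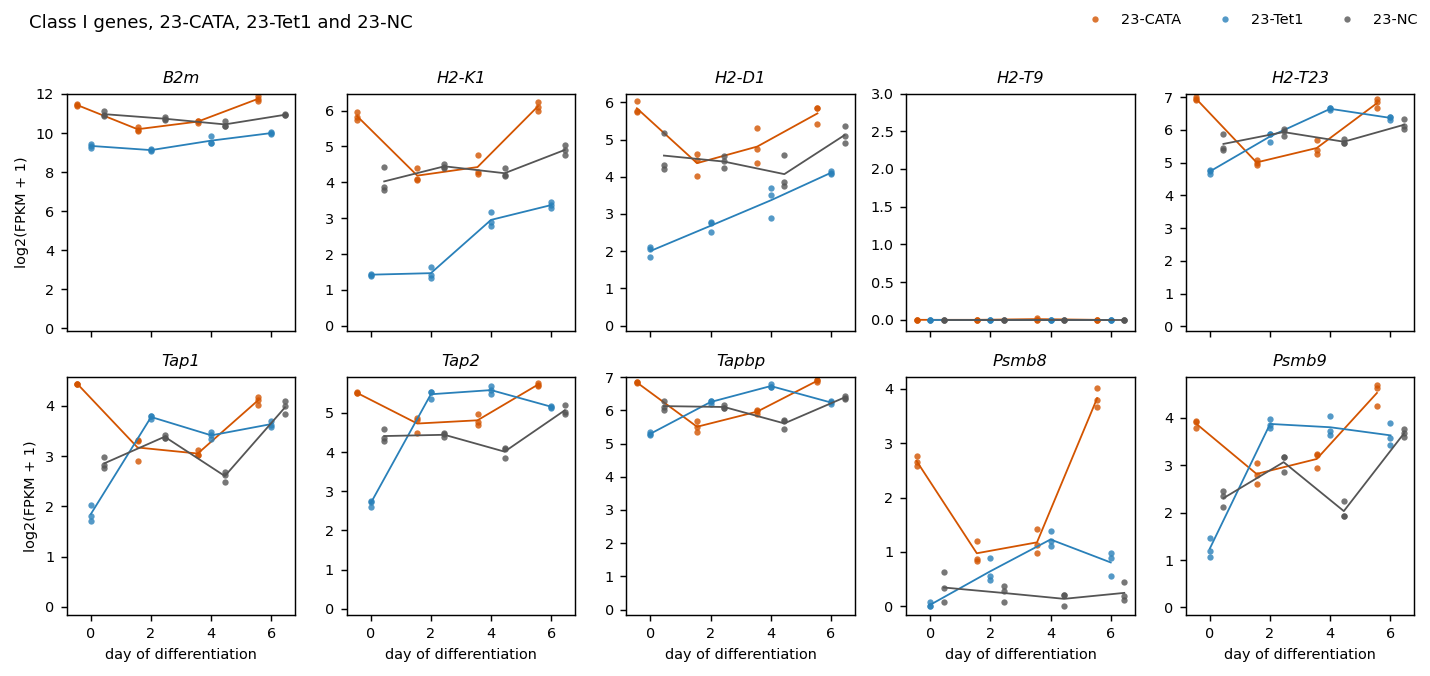
Levels of the class I genes as log2(FPKM + 1) on days 0, 2, 4 and 6 in 23-CATA, 23-Tet1 and 23-NC cells, in that order within a day. Points are single libraries, 3 per group, and lines join the group means. 23-CATA cells were highest on day 0 for all 9 genes tested and dipped on day 2, while 23-Tet1 cells were lowest on day 0.

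In the second table, before induction, 23-CATA cells had the highest level of 9 members and 23-Tet1 cells the lowest. H2-K1 had 61.05, 52.6 and 55.73 FPKM in 23-CATA cells on day 0, and 1.64, 1.67 and 1.74 FPKM in 23-Tet1 cells, against 20.29, 12.76 and 13.69 FPKM in 23-NC cells. B2m had 2847.62, 2640.12 and 2789.83 FPKM in 23-CATA cells, and 652.69, 595.98 and 695.3 FPKM in 23-Tet1 cells, against 2255.92, 1922.98 and 1841.48 FPKM in 23-NC cells. The 3 populations do not overlap in either gene. Psmb8 had 5.31, 5.83 and 4.99 FPKM in 23-CATA cells, and 0.06, 0 and 0 FPKM in 23-Tet1 cells, against 0.54, 0.06 and 0.26 FPKM in 23-NC cells, so that only 23-CATA stood apart.

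Between 23-CATA and 23-NC cells on day 0, 9 of 9 tested members were higher, where 43.3% of all genes were called in either direction and the median gene moved by 0.11. The changes were 2.22 ± 0.14 for Psmb8 (adjusted p = 3.33e-14), 1.71 ± 0.13 for H2-K1 (2.3e-12), 1.47 ± 0.09 for Tap1 (5.3e-15), 1.46 ± 0.14 for Psmb9, 1.26 ± 0.10 for H2-T23, 1.16 ± 0.24 for H2-D1, 0.99 ± 0.09 for Tap2, 0.60 ± 0.07 for Tapbp and 0.36 ± 0.09 for B2m (0.000204). Psmb8 had the largest change on this scale and the light chain the smallest. Their median was 1.26, against 0 for all genes by construction. Adipocyte marker sums on day 0 were 2432 to 2591 FPKM in 23-CATA cells, against 59.7 to 66.1 FPKM in 23-NC cells, and leukocyte marker sums 36.3 to 37.3 FPKM in 23-CATA cells, against 5.57 to 10.3 FPKM in 23-NC cells. Cd68 made up most of the 23-CATA sum, and without it the sums were 4.08 to 4.99 FPKM in 23-CATA cells, against 1.98 to 4.13 FPKM in 23-NC cells. The part of these markers in the class I difference was not tested.

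On day 2 the direction differed from gene to gene. H2-T23 had 30.68, 33.14 and 29.77 FPKM in 23-CATA cells, against 61.38, 55.55 and 63.99 FPKM in 23-NC cells, and B2m had 1098.07, 1135.78 and 1286.26 FPKM in 23-CATA cells, against 1801.71, 1623.71 and 1681.19 FPKM in 23-NC cells. Neither overlaps. There were 2 members higher, Psmb8 (0.70 ± 0.14) and Tap2 (0.26 ± 0.09), and 4 lower, H2-T23 (-0.95 ± 0.10, adjusted p = 4.34e-09), Tapbp (-0.62 ± 0.07), B2m (-0.56 ± 0.09) and Tap1 (-0.24 ± 0.09), where 65% of all genes were called. The Tap2 call was lost without 23-CATA replicate 2, and the Tap1 call (adjusted p = 0.0373) without 23-CATA replicate 3 or any 1 of the 23-NC libraries, with no filter (0.0519) and with the 2 groups fitted alone (0.116).

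On day 4, 6 members were higher in 23-CATA than in 23-NC cells and 0 lower, where 68.7% of all genes were called. Psmb9 (1.18 ± 0.14, adjusted p = 5.19e-08), Psmb8 (1.12 ± 0.14), Tap2 (0.88 ± 0.09), H2-D1 (0.82 ± 0.24, 0.00683), Tap1 (0.53 ± 0.09) and Tapbp (0.44 ± 0.07) were called, while H2-K1 changed by 0.25 (0.261), B2m by 0.23 (0.182) and H2-T23 by -0.11 (0.0969). The H2-D1 call was lost without 23-CATA replicate 3 (0.0822) or 23-NC replicate 1 (0.0504).

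On day 6, 8 members were higher in 23-CATA cells and 0 lower, where 74.4% of all genes were called. Psmb8 had 12.91, 15.18 and 11.71 FPKM in 23-CATA cells, against 0.36, 0.14 and 0.08 FPKM in 23-NC cells. H2-K1 had 67.63, 74.01 and 62.99 FPKM in 23-CATA cells, against 26.21, 31.99 and 28.71 FPKM in 23-NC cells. B2m had 3184.33, 3393.79 and 3774.37 FPKM in 23-CATA cells, against 1924.95, 1997.67 and 1949.44 FPKM in 23-NC cells. These groups do not overlap, and the changes were 3.56 ± 0.14 for Psmb8 (adjusted p = 2.6e-19), 1.19 ± 0.13 for H2-K1 and 0.80 ± 0.09 for B2m. Psmb9 (0.84), Tap2 (0.64), H2-T23 (0.64), H2-D1 (0.57, adjusted p = 0.0277) and Tapbp (0.49) were higher as well, and Tap1 changed by 0.12 (0.168). The H2-D1 call was lost without 23-CATA replicate 1 or 2 or 23-NC replicate 1 or 3, and with quantile normalisation (0.0504).

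23-Tet1 cells, set against 23-NC cells, had lower levels of 8 members on day 0 and differed in both directions later. On day 0, 0 members were higher and 8 lower, where 61.3% of all genes were called: H2-K1 (-2.70 ± 0.13, adjusted p = 3.36e-16), H2-D1 (-2.66 ± 0.24), Tap2 (-1.81 ± 0.09), B2m (-1.72 ± 0.09), Psmb9 (-1.16 ± 0.14), Tap1 (-1.10 ± 0.09), H2-T23 (-0.94 ± 0.10) and Tapbp (-0.93 ± 0.07). Psmb8 changed by -0.41 ± 0.14 (0.0541). Adipocyte marker sums were 28.0 to 40.1 FPKM in 23-Tet1 cells, against 59.7 to 66.1 FPKM in 23-NC cells.

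On day 2 the transporter and the proteasome subunits were higher in 23-Tet1 than in 23-NC cells, and the light and classical heavy chains lower. Tap2 had 45.49, 45.14 and 40.16 FPKM in 23-Tet1 cells on day 2, against 20.93, 19.8 and 21.49 FPKM in 23-NC cells. H2-K1 had 1.68, 1.53 and 2.11 FPKM in 23-Tet1 cells, against 21.93, 19.99 and 20.46 FPKM in 23-NC cells. Both genes separate the populations, in opposite directions. Tap2 (0.94 ± 0.09, adjusted p = 4.56e-11), Psmb9 (0.71 ± 0.14), Tap1 (0.30 ± 0.09) and Psmb8 (0.30 ± 0.14, 0.016) were higher, and H2-K1 (-3.07 ± 0.13), H2-D1 (-1.82 ± 0.24) and B2m (-1.70 ± 0.09) lower, which is 4 higher and 3 lower, where 63.9% of all genes were called. The Psmb8 call was lost relative to the median gene (0.0645) and without 23-Tet1 replicate 3 or 23-NC replicate 3.

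On day 4 Tapbp and H2-T23 were higher in 23-Tet1 cells too. H2-T23 had 100.59, 96.4 and 100.62 FPKM in 23-Tet1 cells, against 47.11, 52.2 and 47.5 FPKM in 23-NC cells, and B2m had 721.01, 908.69 and 726.17 FPKM in 23-Tet1 cells, against 1316.2, 1295.23 and 1572 FPKM in 23-NC cells. Both separate the populations. Psmb9 (1.68 ± 0.14), Tap2 (1.49 ± 0.09, adjusted p = 5.87e-15), Tapbp (1.04 ± 0.07), Psmb8 (1.01 ± 0.14), H2-T23 (0.92 ± 0.10) and Tap1 (0.72 ± 0.09) were higher, and H2-K1 (-1.39 ± 0.13), B2m (-0.91 ± 0.09) and H2-D1 (-0.79 ± 0.24, 0.0123) lower, so 6 higher and 3 lower, where 56.9% of all genes were called. The H2-D1 call was lost without 23-Tet1 replicate 1 (0.118) or 23-NC replicate 3 (0.128), and with the 2 groups fitted alone (0.059).

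On day 6, 1 member was higher in 23-Tet1 cells, Psmb8 (0.51 ± 0.14), and 4 were lower, where 65% of all genes were called. H2-K1 had 8.65, 9.91 and 9.38 FPKM in 23-Tet1 cells, against 26.21, 31.99 and 28.71 FPKM in 23-NC cells, a change of -1.59 ± 0.13 (adjusted p = 3.69e-11). H2-D1 (-1.06 ± 0.24), B2m (-0.99 ± 0.09) and Tap1 (-0.38 ± 0.09) were the others. B2m, H2-K1 and H2-D1 were thus lower in 23-Tet1 than in 23-NC cells on each of the 4 days.

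**Figure D4:**
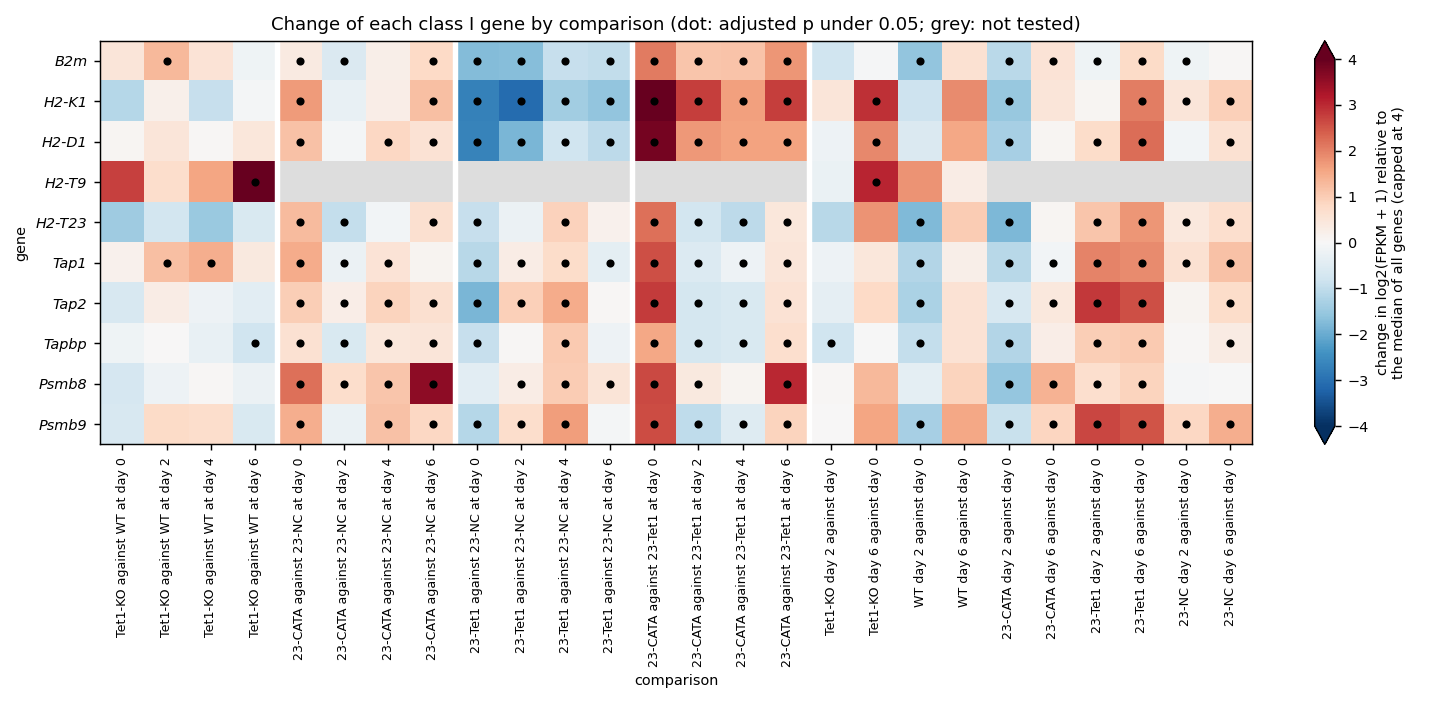
Colour map of the change of each member (rows) in the comparisons between populations and between days (columns), as log2(FPKM + 1) with the median gene taken off, red for higher and blue for lower, capped at 4. Dots mark calls at an adjusted p below 0.05 and grey marks H2-T9 in the second table, which was not tested. B2m, H2-K1 and H2-D1 are blue in 23-Tet1 against 23-NC cells on all 4 days, while Tap1, Tap2, Psmb8 and Psmb9 are red with dots on days 2 and 4.

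Set against 23-Tet1 cells, 23-CATA cells had more of 9 of 9 members on day 0, where 64.2% of all genes were called, from 1.54 for Tapbp to 4.41 ± 0.13 for H2-K1 (adjusted p = 3.12e-22). On day 2, 4 were higher and 5 lower, where 67.4% were called, with H2-K1 at 2.77, H2-D1 at 1.74 and B2m at 1.12 on one side and Psmb9 at -1.0, H2-T23 at -0.74, Tap2 and Tapbp at -0.69 and Tap1 at -0.55 on the other. The fourth higher member, Psmb8 (0.38, adjusted p = 0.0423), lost its call without 23-CATA replicate 3 or 23-Tet1 replicate 1 or 2 and under 5 other settings (adjusted p of 0.0592 to 0.175). On day 4, 3 were higher (H2-K1 1.64, H2-D1 1.61, B2m 1.14) and 5 lower (H2-T23 -1.03, Tap2 and Tapbp -0.61, Psmb9 -0.51, Tap1 -0.20), where 74.2% were called and the median gene moved by -0.16. The Tap1 call was lost with quantile normalisation (adjusted p = 0.471) and with median-ratio scaling (0.196). On day 6 all 9 were higher again, from 0.46 for H2-T23 to 3.03 for Psmb8, where 65.7% were called.

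Over time the 3 populations took different courses. In 23-CATA cells 0 members were higher and 9 lower on day 2 than on day 0, where 72.3% of all genes were called and the median gene moved by -0.16. H2-T23 fell by 1.78 ± 0.10 (adjusted p = 1.99e-16), Psmb8 by 1.54, H2-K1 by 1.5 and H2-D1 by 1.32, and Tap2 moved least, with 0.63. Group means of H2-T23 in 23-CATA cells were 122 FPKM on day 0, 31.2 on day 2, 43.0 on day 4 and 112 on day 6. On day 6 against day 0, 4 members were higher, Psmb8 (1.38 ± 0.14), Psmb9 (0.87), B2m (0.54) and Tap2 (0.43), and 1 lower, Tap1 (-0.11), where 77% were called and the median gene moved by -0.22. The Tap1 call (adjusted p = 0.00163) was lost relative to the median gene (0.279) and with median-ratio scaling (0.315). Relative to the median gene 6 members were called higher and 0 lower, where 8984 of 12231 genes were called. The Tap2 call was lost without any 1 of the 6 libraries, with no filter or with quantile normalisation, and the B2m call with quantile normalisation (0.484).

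In 23-Tet1 cells the transporter and Psmb9 were higher by day 2, and H2-K1 by day 6. Tap2 averaged 5.47 FPKM on day 0, 43.6 on day 2, 47.0 on day 4 and 34.7 on day 6, and Psmb9 1.39, 13.7, 13.0 and 11.5 FPKM on the same days. H2-K1 averaged 1.68, 1.77, 6.78 and 9.31 FPKM on the same days, and H2-D1 3.02, 5.44, 9.58 and 16.2 FPKM. H2-K1 and H2-D1 therefore reached their highest mean on day 6, and Tap2 and Psmb9 theirs on day 4 and day 2. On day 2, 7 members were higher than on day 0 and 1 lower, where 64.4% of all genes were called: Tap2 (2.83 ± 0.09, adjusted p = 1.72e-21), Psmb9 (2.67 ± 0.14), Tap1 (1.97 ± 0.09), H2-T23 (1.11), Tapbp (1.00), H2-D1 (0.72) and Psmb8 (0.66) were higher, and B2m lower (-0.17, adjusted p = 0.0492), while H2-K1 changed by 0.09. The H2-D1 call was lost without 23-Tet1 day 0 replicate 3 and the B2m call without day 0 replicate 1 or 3 or day 2 replicate 2 or 3. B2m also lost its call with a replicate block (adjusted p = 0.0534), with no filter, relative to the median gene (0.117) and under quantile or median-ratio scaling. On day 6 all 9 were higher than on day 0, from 0.78 for B2m to 2.58 ± 0.09 for Tap2, where 77.6% were called and the median gene moved by -0.12.

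In 23-NC cells 4 members were higher on day 2 than on day 0 and 1 lower, where 59.5% of all genes were called. Psmb9 (0.83 ± 0.14), Tap1 (0.60 ± 0.09, adjusted p = 9e-06), H2-K1 (0.49 ± 0.13) and H2-T23 (0.43 ± 0.10) were higher and B2m lower (-0.17 ± 0.09, 0.0358). B2m turned to a fitted value of 0.016 under quantile normalisation (0.908), its call was lost relative to the median gene (0.136), with median-ratio scaling or no filter and without day 0 replicate 1 or day 2 replicate 2 or 3, and the H2-K1 call without day 0 replicate 2 (0.0751). With the 2 groups fitted alone 2 were called, where 5868 of 12231 genes were called. By day 6, 7 were higher than on day 0 and 0 lower, where 72.2% were called, led by Psmb9 (1.44 ± 0.14, adjusted p = 5.32e-10) and Tap1 (1.19 ± 0.09). The H2-D1 call (0.0386) was lost without day 0 replicate 2 or 3 or day 6 replicate 2 or 3, with no filter or with the 2 groups fitted alone, and the Tapbp call with quantile normalisation (0.0704).

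The day 6 to day 0 change was larger in 23-Tet1 than in 23-NC cells for 9 members and smaller for 0, where 61.4% of all genes were called in this difference of changes. Tap2 had the largest (1.85, adjusted p = 5.96e-13), followed by H2-D1 (1.59) and H2-K1 (1.10). B2m (0.73) lost its call with quantile normalisation (0.14). For 23-CATA against 23-NC cells the difference was positive for 2 members, Psmb8 (1.35, 3.91e-06) and B2m (0.44), and negative for 5, Tap1 (-1.35, 6.52e-11), H2-T23 (-0.62), Psmb9 (-0.62), H2-K1 (-0.52) and Tap2 (-0.36), where 63.5% were called. The B2m difference had a fitted value of -0.211 under quantile normalisation (adjusted p = 0.215), the reverse of its sign otherwise, and its call was lost without 23-CATA day 0 replicate 2, 23-CATA day 6 replicate 3 or 23-NC day 0 replicate 1 and with the compared groups fitted alone (0.0714). These differences share the 23-NC libraries.

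The immunoproteasome can be read as the level of an inducible subunit over that of the constitutive subunit it replaces, as a ratio of FPKM. Psmb9 over Psmb6 averaged 1.33 ± 0.22%, 1.09 ± 0.27%, 1.10 ± 0.82% and 4.23 ± 6.08% on days 0, 2, 4 and 6 in Tet1-KO cells, against 3.54 ± 0.38%, 0.205 ± 0.023%, 0.381 ± 0.115% and 5.61 ± 0.88% in WT cells (SD, n = 3). The 3 Tet1-KO libraries of day 6 had 1.27%, 0.191% and 11.2%. It averaged 13.4 ± 1.1%, 4.02 ± 0.80%, 4.18 ± 0.70% and 10.5 ± 1.8% in 23-CATA cells, and 1.05 ± 0.22%, 12.1 ± 0.4%, 10.4 ± 0.7% and 10.1 ± 1.6% in 23-Tet1 cells, against 4.80 ± 1.02%, 7.23 ± 1.43%, 2.43 ± 0.13% and 11.1 ± 1.0% in 23-NC cells. Between day 0 and day 2 the mean ratio thus rose in 23-Tet1 and 23-NC cells and fell in WT and 23-CATA cells. The 23-NC libraries of these days overlap. Psmb8 over Psmb5 averaged 6.05% on day 0 and 4.99% on day 6 in 23-CATA cells, and 0.0218% and 0.895% in 23-Tet1 cells, against 0.365% and 0.275% in 23-NC cells. Psmb10, the other inducible subunit, stood at 10.1% of Psmb7 on day 6 in 23-CATA cells and 6.11% in 23-Tet1 cells, against 2.72% in 23-NC cells, and was higher in 23-CATA than in 23-NC cells on day 6 by 2.94 ± 0.16 (adjusted p = 3.35e-16).

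**Figure D5:**
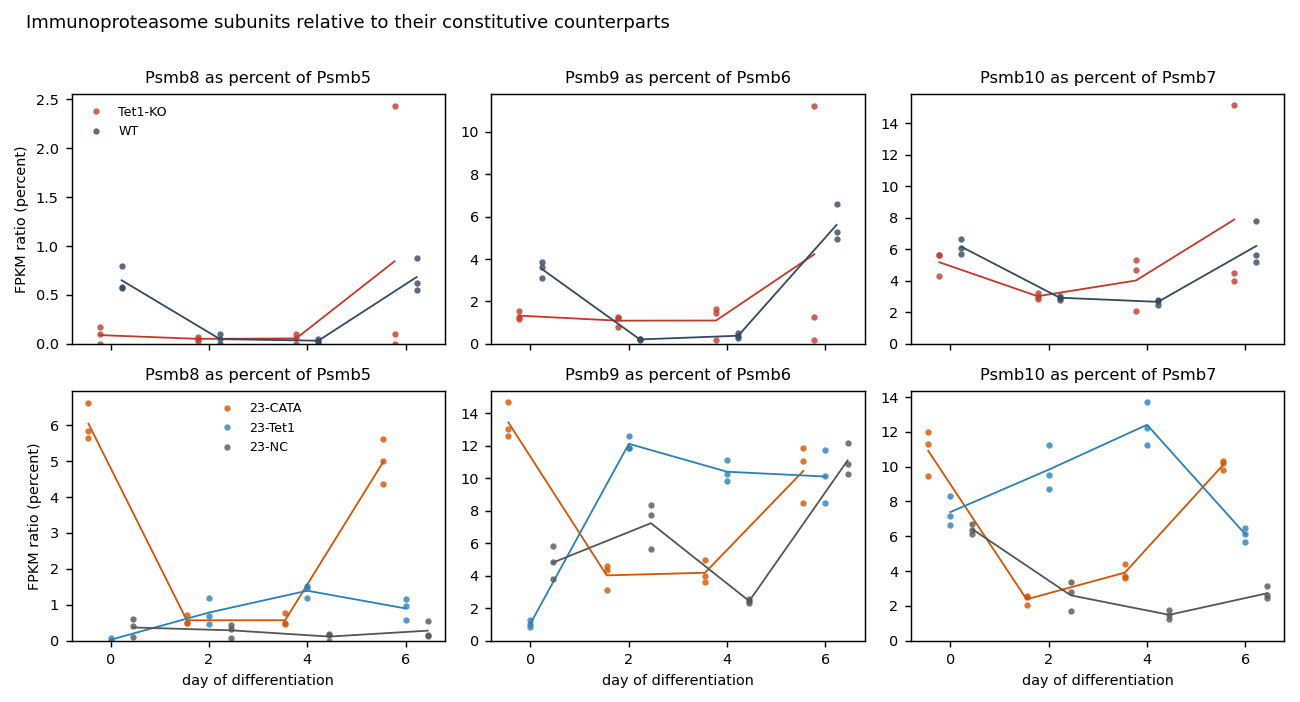
FPKM of each inducible catalytic subunit as a percentage of the constitutive subunit it replaces (Psmb8 over Psmb5, Psmb9 over Psmb6, Psmb10 over Psmb7), by population and day, with points for single libraries, 3 per group. Psmb8 over Psmb5 was highest in 23-CATA cells on days 0 and 6, and Psmb9 over Psmb6 in 23-Tet1 cells lay near 1% on day 0 and above 10% on average on later days.

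The denominators moved too. In WT cells on day 2 against day 0, all 3 constitutive catalytic genes and 11 of 11 other genes of the 20S core were higher, where 18.9% of all genes were. Their medians were 1.76 and 1.35, against -1.34 for Psmb9. In 23-CATA against 23-NC cells on day 6, 3 of 3 and 11 of 11 were higher as well, with medians of 1.36 and 0.97, where 38% of all genes were higher and 36.4% lower. Of 6 further genes of the immunoproteasome and its activator PA28, 5 were higher and 1 lower in that comparison, led by Psmb10, Psme1 (2.23) and Psme2 (1.94), which encode the PA28 subunits. The ratio of Psmb9 to Psmb6 in WT cells on day 2 thus combines a lower mean of Psmb9 with higher constitutive subunits.

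Among the other steps of the pathway, 16 genes of peptide loading and trimming were called in both directions. In 23-CATA against 23-NC cells 2 were higher and 3 lower on day 0, where 43.3% of all genes were called, and 6 higher and 9 lower on day 6, where 74.4% were. Tapbpl, a tapasin-related peptide editor, was among the higher ones on both days, with 8.95 ± 0.86 FPKM in 23-CATA cells on day 6, against 1.29 ± 0.38 FPKM in 23-NC cells (SD, n = 3 each), a change of 2.11 ± 0.12 (adjusted p = 1.92e-15). Erap1, which trims peptides in the endoplasmic reticulum, was higher by 0.86 on day 6, and Hspa5, a chaperone there, was lower (-1.08). In 23-Tet1 against 23-NC cells on day 4, 10 were higher and 0 lower, where 35% of all genes were higher and 21.9% lower. The largest were Tapbpl (1.22), Erap1 (1.12) and Calr (0.68), the chaperone calreticulin. In Tet1-KO against WT cells on day 6, 1 was higher and 5 lower, where 15.7% of all genes were higher and 29.7% lower. These list counts changed without Tet1-KO replicates 2 and 3.

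The heavy chain rows outside the members are near-identical copies in part, and several never reached 1 FPKM as a group mean. H2-Q4, a Q region gene, averaged 3.44 ± 0.33 FPKM in 23-Tet1 cells on day 0, against 28.8 ± 3.4 FPKM in 23-NC cells (SD, n = 3 each), a change of -2.84 ± 0.16 (adjusted p = 7.24e-15), and it was lower in 23-Tet1 than in 23-NC cells on all 4 days, as were H2-K1 and H2-D1. Of 23 rows 9 were tested in the second table. On day 0, 1 was higher and 6 lower in 23-Tet1 cells, and 7 were higher and 0 lower in 23-CATA cells, each against 23-NC cells. Of all genes, 37.8% were higher and 23.5% lower in 23-Tet1 cells, and 31.6% and 11.7% in 23-CATA cells. H2-T24 (1.49), H2-T22 (0.45), H2-M3 (0.26), which presents N-formylated peptides, the iron regulator Hfe (0.77), the Fc receptor Fcgrt (0.32), the lipid presenting Cd1d1 (1.73) and H2-Q4 (0.66) were the 7 in 23-CATA cells. H2-L averaged 20.8 FPKM in 23-CATA cells on day 0, against 6.55 FPKM in 23-NC cells, and was not called. Mr1, which presents vitamin metabolites, was lower in 23-Tet1 than in 23-NC cells on each day, by -1.31, -0.84, -0.51 and -1.26.

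Of these rows, 6 were tested in the first table. Between Tet1-KO and WT cells on day 6, 0 were higher and 4 lower, H2-T22, Mr1 (-1.38), Cd1d1 (-1.16) and Fcgrt (-0.60), where 15.7% of all genes were higher and 29.7% lower. On day 2, 2 were higher, Mr1 (1.30) and H2-T22 (1.06), and 1 lower, Fcgrt (-0.89), where 16.2% of all genes were higher and 6.76% lower. In WT cells on day 2 against day 0, 0 were higher and 4 lower, where 18.9% of all genes were higher and 43.2% lower: Mr1 (-2.60), H2-Q4 (-2.12), H2-T22 (-1.92) and H2-M3 (-1.80).

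Interferon-stimulated genes outside the pathway were counted from a list of 25. Of 23 tested, 21 were higher and 0 lower in 23-CATA than in 23-NC cells on day 0, 3 and 14 on day 2, 17 and 1 on day 4, and 23 and 0 on day 6. Of all genes, 31.6% were higher and 11.7% lower on day 0, and 34.3% and 30.7% on day 2. On day 4 these shares were 28.9% and 39.9%, and on day 6 38% and 36.4%. Isg15, a ubiquitin-like interferon product, had 262 ± 11 FPKM in 23-CATA cells on day 6, against 7.79 ± 1.28 FPKM in 23-NC cells (SD, n = 3 each), a change of 4.89 ± 0.15. In 23-Tet1 against 23-NC cells the counts were 0 and 19 on day 0, 4 and 16 on day 2, 18 and 4 on day 4, and 6 and 12 on day 6. Of all genes, 37.8% were higher and 23.5% lower on day 0, and 38.7% and 25.2% on day 2. On day 4 these shares were 35% and 21.9%, and on day 6 36% and 29%. Bst2, the virion tether tetherin, had 13.9 ± 3.1 FPKM in 23-Tet1 cells on day 0, against 188 ± 47 FPKM in 23-NC cells, a change of -3.75 ± 0.16. In Tet1-KO against WT cells 5.83% of all genes were higher and 11% lower on day 0, and 16.2% and 6.76% on day 2. On day 4 these shares were 9.79% and 6.22%, and on day 6 15.7% and 29.7%. In WT cells on day 2 against day 0 they were 18.9% and 43.2%. The counts of 17 listed genes tested in Tet1-KO against WT cells were 0 and 0, 2 and 0, 1 and 0, and 4 and 0 on days 0, 2, 4 and 6, and in WT cells on day 2 against day 0 these counts were 0 and 10. The counts on days 2 and 6 for Tet1-KO against WT cells changed without Tet1-KO day 6 replicates 2 and 3. So did those for WT cells on day 2 against day 0. That fit leaves 1 library in the Tet1-KO day 6 group, and its counts are not given here.

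The regulators of class I and interferon genes, 24 in all, were tested for 22 genes in the second table. In 23-CATA against 23-NC cells 15 were higher and 1 lower on day 0, where 31.6% of all genes were higher and 11.7% lower, and 7 higher and 9 lower on day 6, where 38% were higher and 36.4% lower. Irf1 averaged 36.8 ± 1.5 FPKM in 23-Tet1 cells on day 4, against 11.6 ± 0.7 FPKM in 23-NC cells, a change of 1.5 ± 0.07, while Nlrc5, the class I transactivator, averaged 0.377 ± 0.045 FPKM in 23-Tet1 cells, against 1.29 ± 0.18 FPKM in 23-NC cells, a change of -0.82 ± 0.10.

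Nlrc5 was lower in 23-Tet1 than in 23-NC cells on all 4 days, with 0.0533 ± 0.0252 FPKM in 23-Tet1 cells on day 0, against 1.08 ± 0.26 FPKM in 23-NC cells, a change of -1.07 ± 0.10 (adjusted p = 5.23e-10). It was lower in 23-CATA than in 23-NC cells on days 2, 4 and 6. In the first table its group means were 0.03 to 0.55 FPKM and it was not tested. There, 1 of 21 regulators was higher and 16 were lower in WT cells on day 2 than on day 0, where 18.9% of all genes were higher and 43.2% lower. On day 6, 3 regulators were higher and 12 lower in Tet1-KO than in WT cells, where 15.7% of all genes were higher and 29.7% lower. Irf9 changed by 1.27, Irf1 by -1.40 and Ifngr1, a chain of the interferon gamma receptor, by -2.13. The regulator counts on day 6 changed without Tet1-KO replicates 2 and 3. Class II genes were mostly too low to test, with 3 of 7 tested. Cd74, the invariant chain, fell by 4.07 ± 0.38 in WT cells on day 2 against day 0, with 1.20 ± 0.49 FPKM on day 2, against 46.7 ± 2.1 FPKM on day 0.

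The group means of the members were averaged after scaling, and other genes were ranked by the Pearson correlation of their group means with that average. The points share libraries and days, and the value describes likeness only. Over the 8 groups of the first table the closest genes were Irgm2 (r = 0.971), Cbx7 (0.968), Hpcal1 (0.96), Parp10 (0.959) and Cyp2j9 (0.957). Over the 12 groups of the second table they were Daxx (0.928), Dhx58 (0.918), Shisa5 (0.905), Fth1 (0.901) and Gbp10 (0.893). H2-T9 was the member least like the average in the first table (r = -0.0145).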

How the data were processed

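RNA-seq libraries were aligned with STAR 2.4.1a to mm10 and quantified with RSEM, per the submitters' processing notes. The authors deposited FPKM values per gene, to 2 decimals, in 2 tables that were kept apart. The 10 members, the gene lists and the rules were chosen with earlier results of these data known. Groups follow the sample titles, since the genotype tag of 11 samples titled 23-Tet1 counts upward. In each table genes with at least 1 FPKM in at least 3 libraries were fitted as log2(FPKM + 1) with limma 3.58.1 (R 4.3.3), all groups in 1 fit with an intensity trend, and p-values were adjusted by Benjamini-Hochberg over all genes tested, for 29 comparisons. The fitting code was tested on simulated data. FPKM keeps no counts, so no count model was used. Fragments per library were estimated from the step of low values in single-transcript genes, which limits low genes such as Psmb8. The text names all members, up to 3 called genes of each list per comparison and direction with the largest change, every other heavy chain row reaching a group mean of 1 FPKM, and the 5 most like genes per table. Other settings tried were an added 0.1 FPKM before the log, all genes unfiltered, quantile and median-ratio scaling, changes relative to the median, compared groups alone, library weights, a replicate block, each library left out, and, chosen after seeing the data, both Tet1-KO day 6 replicates 2 and 3 left out. Shared 50-base stretches and coordinates are from GENCODE on GRCm38, promoters from RefSeq on GRCm38.p6. Python 3.11.15, pandas 2.3.3, numpy 2.4.6, matplotlib 3.10.9 and Biopython 1.88 were used. Some items are not reported here.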

Additional observations from a re-analysis of the deposited data

Results flagged for a closer look

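The day 6 to day 0 change differed between populations in the second table, tested as an interaction in the limma fit on log2(FPKM + 1). Relative to 23-NC cells the change in 23-Tet1 cells was larger by 0.69 for B2m, 1.064 for H2-K1, 1.553 for H2-D1, 1.05 for H2-T23, 0.6747 for Tap1, 1.808 for Tap2, 0.6798 for Tapbp, 0.8781 for Psmb8 and 1.017 for Psmb9. Relative to 23-NC cells the change in 23-CATA cells differed by 0.3503 for B2m and 1.256 for Psmb8, and by -0.6092 for H2-K1, -0.7133 for H2-T23, -1.441 for Tap1, -0.4486 for Tap2 and -0.717 for Psmb9. These values are as fitted, before the median change of all genes was taken off. Both sets share the 23-NC libraries.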

How the results depend on the processing

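Of 167 calls of single members, 166 kept direction and threshold with library weights, 166 with a replicate block, 164 with a pseudocount of 0.1 FPKM, 162 with median-ratio scaling, 161 relative to the median change, 158 with no filter, 156 with quantile normalisation and 154 with the compared groups alone. Of 1108 fits without 1 library, 1040 kept the call. Relative to the median change 9 members were lower in 23-Tet1 than in 23-NC cells on day 0, where 7254 of 12231 genes were called. On day 6 of that comparison 1 was higher and 5 lower (7933 genes). In 23-CATA against 23-NC cells on day 4, 7 were higher and 0 lower (8301 genes). The call that a replicate block ended was B2m in 23-Tet1 cells on day 2 against day 0 (-0.215, adjusted p = 0.0534). Same-numbered libraries did not deviate together (correlations of -0.411 to 0.383 over 26 comparisons, and every pair above 0.1 in 1), so the numbers were not taken as pairs. Under quantile normalisation B2m reversed to 0.016 in 23-NC cells on day 2 against day 0 (adjusted p = 0.908) and to -0.2111 in the 23-CATA interaction (0.215). The cause was not tested.

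Counts of members called moved by more than 1.5 times only in the first table and in 23-NC cells on day 2 against day 0 (2 with the groups alone). Brackets below give how many of all genes were called, of 11911 except with no filter. For Tet1-KO against WT cells the member count on day 0 was 6 with the groups alone (5648) and 8 with weights (8763). It was 2 with quantile normalisation (2228), 1 with the pseudocount of 0.1 (1467) and 0 to 3 without 1 library. On day 2 it was 5 with weights (7475) and 1 to 2 without 1 library. On day 4 it was 8 with weights (9167) and 0 to 2 without 1 library. On day 6 it was 1 with the groups alone (1042), 7 with weights (7228) and 1 to 7 without 1 library. In WT cells it was 10 on day 2 with the groups alone (10037) or weights (10429). On day 6 in WT cells it was 7 with the groups alone (9158), 6 with median-ratio scaling (6314) and 6 with weights (9454). It was 3 with quantile normalisation (6700), 2 relative to the median (6103), 2 with a replicate block (6853) and 0 to 3 without 1 library. In Tet1-KO cells on day 2 it was 0 relative to the median (2469), with the pseudocount of 0.1 (2257) or with no filter (2671). It was 2 with quantile (3085) or median-ratio scaling (2661), 3 with the groups alone (2401), 4 with weights (5568) and 0 to 2 without 1 library. On day 6 in Tet1-KO cells it was 7 with quantile normalisation (4164), 5 with median-ratio scaling (4117) and 5 relative to the median (3723). It was 1 with no filter (5346), 0 with the groups alone (431) and 1 to 7 without 1 library. The interaction of Tet1-KO and WT had 1 with weights (6126) and 0 to 1 without 1 library. Totals of all genes for the fits without 1 library are not given beside these counts. The number of all genes called moved with the setting too. For Tet1-KO against WT cells on day 0 it was 1467 of 11911 with the pseudocount of 0.1 and 8763 with weights.

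Counts in the other gene lists stayed within 1.5 times in 225 of 232 cases with the pseudocount of 0.1 FPKM and 224 with a replicate block. The number was 212 with no filter, 205 relative to the median, 204 with median-ratio scaling and 193 with quantile normalisation. It was 170 with the groups alone and 169 with weights. Without Tet1-KO day 6 replicates 2 and 3 it was 31 of 72. Depth limits what can be said of genes below 1 FPKM in many libraries, such as Psmb8 and Nlrc5. H2-T9 was low in many libraries too, and how reads were divided between it and its copies was not tested.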
